A study of Homo sapiens with 6 samples.

Results

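The genes described here are 37 targets of the transcription factor NRF2 and enzymes of xenobiotic metabolism, named by symbol and read from a table of 25442 genes in 6 RNA-seq libraries of YAPC, a human pancreatic ductal adenocarcinoma cell line. All 37 were found under their own symbol. Of these, 36 reached an average of 1 FPKM over the libraries and were tested, and ALDH1A1, at 0.352 to 0.636 FPKM, did not. FPKM corrects the fragments of a gene for the length of its transcript and the size of its library, so levels can be set side by side between genes. The members were chosen by function and not by any value in the table, although results of these data were known when they were proposed.

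YAPC cells carrying rtTA, the transactivator that doxycycline (Dox) switches on, received either pRetroX-Tight-Puro with GLI2, a transcription factor of the Hedgehog pathway (YAPC-iGLI2, 3 libraries), or the same vector empty (YAPC-iEV, 3 libraries). Cells of both groups were kept in full growth medium with Dox for 6 days, so Dox itself was common to every library and the groups differed by the insert. A single line was used, and nothing in the labels says whether the cells were a clone or a pool, or whether the 3 replicates were separate cultures. The p-values therefore measure only the spread between these libraries, which may be technical.

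NRF2, the product of NFE2L2, is a basic leucine zipper factor that is held in the cytoplasm and sent for degradation by KEAP1 until oxidants or electrophiles modify cysteines of KEAP1. Freed NRF2 pairs with a small MAF protein on antioxidant response elements and raises genes of glutathione and thioredoxin synthesis and recycling, NADPH production, quinone and carbonyl reduction and conjugation. A separate sensor, the aryl hydrocarbon receptor (AHR), acts on dioxin response elements of CYP1A1, CYP1B1 and several enzymes of both sets.

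The core of the antioxidant response element, TGACNNNGC, was searched on both strands in RefSeq promoter windows of GRCh38.p14, from 250 bases before to 50 bases after each annotated start. Of 30 members with a window, 9 held the core, namely EPHX1, GCLM, GPX2, GSTP1, KEAP1, ME1, MGST1, PGD and TXNRD1, and it was present in 10 of their 43 windows against 13.35% of all 35116 windows. GPX2, TXNRD1, GCLM and GSTP1 are shown because they span what the libraries showed. In the main fit of all 6 libraries, GPX2 was the only member called higher. TXNRD1 was called lower and has the core before 2 alternative starts. GCLM was not called, and GSTP1 was the most abundant member. Each line reads 5′ to 3′ on the strand of the gene and the capitals mark the core, which is read on the opposite strand where the run begins with GC.

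GPX2: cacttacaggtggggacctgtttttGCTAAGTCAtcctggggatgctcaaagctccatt
TXNRD1 upstream start: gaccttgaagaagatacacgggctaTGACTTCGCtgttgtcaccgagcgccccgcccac
TXNRD1 downstream start: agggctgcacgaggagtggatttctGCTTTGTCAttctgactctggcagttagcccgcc
GCLM: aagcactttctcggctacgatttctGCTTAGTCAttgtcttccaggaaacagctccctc
GSTP1: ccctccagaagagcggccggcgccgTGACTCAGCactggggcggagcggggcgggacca

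These 5 runs lie, in the order given, at chr14:64942834-64942892 (minus strand), chr12:104215655-104215713 and chr12:104286905-104286963 (plus strand), chr1:93909431-93909489 (minus strand) and chr11:67583721-67583779 (plus strand) of GRCh38.p14. The core begins 122 bases before the start of GPX2, 99 and 102 bases before the starts of TXNRD1, 34 before that of GCLM and 66 before that of GSTP1. In GSTP1 and ME1 the core overlaps an AP-1 site, TGACTCA, which 4.95% of all windows hold. The core of the dioxin response element, GCGTG, was found for 20 members, among them CYP1A1, NQO1, AKR1B1 and ALDH3A2, and in 24 of the 43 member windows against 36.5% of all windows. The GLI site GACCACCCA was in 0.236% of all windows and in 0 of those of the members. A match of letters is given as a description only. AKR1B10, ALDH3A1, CYP1B1, GSR, HMOX1, MGST2 and PRDX1 had no window.

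GLI2 itself was at 0.344 to 0.466 FPKM in the iEV libraries and at 94.5, 207 and 195 FPKM in iGLI2 replicates 1, 2 and 3. iGLI2 replicate 1 thus stood apart from the rest of its group, and results that rest on it are given with and without it. Of the 36 tested members, 31 had their lowest iGLI2 value in replicate 1 (86.1%, beside 52.6% of all genes tested), and 25 had their lowest iEV value in iEV replicate 1 (69.4%, beside 43.7%). The epithelial markers EPCAM, KRT7, KRT19 and CDH1 were above 50 FPKM in all 6 libraries, while KRT8 and KRT18 were listed at 0 in all 6, so a listed 0 was not read as absence. No member was listed at 0. Of 18 markers of leukocytes, endothelium, fibroblasts, acinar cells, islets and hepatocytes, 14 stayed under 1 FPKM in every library, with a summed level of 13.0 to 21.6 FPKM in iEV and 8.15 to 12.4 FPKM in iGLI2 over the 18. Those above 1 FPKM were PRSS1 (2.59 to 13.3 FPKM), CD14 (1.30 to 5.26 FPKM), COL1A1 (1.29 to 2.98 FPKM) and the joint entry of INS and IGF2 (1.34 to 2.37 FPKM). In such bulk libraries, fewer cells of a kind and less RNA per cell cannot be told apart.

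With all 6 libraries, 1 member was called higher in YAPC-iGLI2 than in YAPC-iEV and 6 were called lower, while 29 were not called (limma on log2(FPKM + 1), Benjamini-Hochberg adjustment over 12493 genes, threshold 0.05). The member called higher was GPX2. Those called lower were ALDH3A1, AKR1B1, ALDH3A2, ALDH3B1, NQO1 and TXNRD1. Over all genes tested, 10.1% were called higher and 11.8% lower, against 2.78% and 16.7% of the members, and no test was made of these shares. The median log2 fold change, iGLI2 minus iEV, was -0.10 over the members and -0.01 over all genes. Counted by groups that do not overlap, 3 members were higher and 11 lower, where 19.2% and 22.8% of all genes tested were.

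Without iGLI2 replicate 1, 9 members were called higher and 7 lower, beside 14.7% and 15.3% of all genes in the same fit, and the median over the members was -0.01. The 9 were GPX2, AKR1B10, AKR1C1, AKR1C3, ALDH1A3, HMOX1, ME1, NFE2L2 and TKT, and the 7 were the 6 named above with TALDO1. This fit kept iEV replicate 1, the lowest of its group in 25 of 36 members, so the groups were not treated alike. When all libraries were kept and the replicate number was added as a block, HMOX1, ME1, NFE2L2 and TKT were not called. The number is that of the sample titles and is not known to mark pairs of libraries. GPX2, AKR1B10, AKR1C1, AKR1C3 and ALDH1A3 were called higher in that block fit. When small RNA genes were left out and the libraries rescaled to the same total, 4 members were called higher and 7 lower, beside 14.7% and 10.1% of all genes. Of all genes called, 46.0% were higher as deposited and 59.4% after this rescaling, so the balance of directions depended on the scale, whereas the 7 calls named first kept their direction and their call under it.

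**Figure D1:**
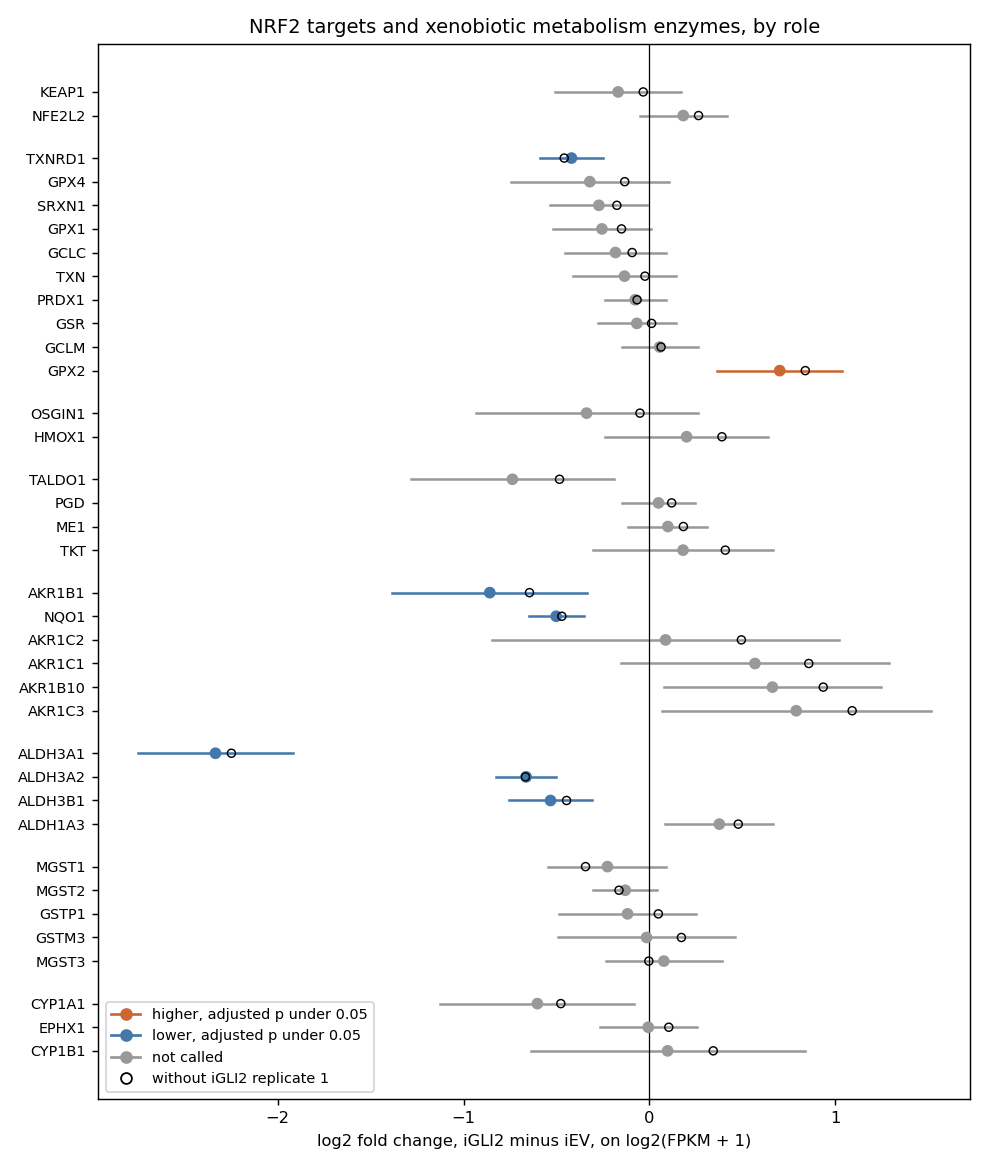
Log2 fold change of each of the 36 tested members, iGLI2 minus iEV on log2(FPKM + 1), grouped by role from the factor and sensor at the top to the cytochromes at the bottom; filled points and bars are the estimate and its 95% confidence interval over all 6 libraries, and open circles the estimate without iGLI2 replicate 1. ALDH3A1 lies far to the left at -2.33, and most open circles lie to the right of their filled point.

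The factor and its sensor were not called. NFE2L2 was at 64.4, 59.1 and 56.5 FPKM in iEV replicates 1 to 3 and at 60.6, 70.9 and 73.4 FPKM in iGLI2 replicates 1 to 3. iGLI2 replicates 2 and 3 lay above every iEV library, and iGLI2 replicate 1 lay among them. The log2 fold change of NFE2L2 was 0.18 ± 0.10 (SE; adjusted p = 0.233), and without iGLI2 replicate 1 it was 0.26 (adjusted p = 0.0438). Exons of NFE2L2 overlap those of HNRNPA3 on the opposite strand, and the library kit does not mark strand. KEAP1, the adaptor that brings NRF2 to its ubiquitin ligase, was at 24.1, 29.0 and 28.4 FPKM in iEV and at 19.7, 26.1 and 26.8 FPKM in iGLI2. These groups overlapped, and the change of -0.17 ± 0.14 gave an adjusted p of 0.435.

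Among the glutathione, thioredoxin and peroxide enzymes, 1 of 10 rose and 1 fell (10% each, beside 10.1% and 11.8% of all genes tested). GPX2, the glutathione peroxidase of gastrointestinal epithelium (chr14:65405870-65409464 of hg19, minus strand), was at 65.0, 77.3 and 68.1 FPKM in iEV and at 94.3, 126 and 125 FPKM in iGLI2. Every iGLI2 library lay above every iEV library. GPX2 rose by 0.70 ± 0.14 on the log2 scale (adjusted p = 0.0174), a ratio of mean FPKM of 1.64. The call was lost when iEV replicate 1, iEV replicate 3, iGLI2 replicate 2 or iGLI2 replicate 3 was left out, with adjusted p-values of 0.0544, 0.0701, 0.0645 and 0.0618 and changes of 0.63 to 0.68.

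TXNRD1, the cytosolic reductase that keeps thioredoxin reduced (chr12:104609557-104744085 of hg19, plus strand), moved the other way. It was at 167, 181 and 177 FPKM in iEV and at 138, 130 and 124 FPKM in iGLI2. The groups were well apart, and iGLI2 replicate 1 was the highest of its group here. TXNRD1 fell by 0.42 on the log2 scale (SE 0.07, adjusted p = 0.0101). Leaving out iEV replicate 2 gave an adjusted p of 0.0552, and leaving out iEV replicate 3 gave 0.0503. Both genes hold the element core printed above, and they were called in opposite directions.

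The subunits of glutamate-cysteine ligase, which makes the first step of glutathione synthesis, did not pass the test. GCLC, the catalytic subunit, was at 24.0, 28.2 and 29.0 FPKM in iEV and at 20.8, 25.1 and 25.4 FPKM in iGLI2, a change of -0.18 ± 0.11 (adjusted p = 0.298). With the replicate number as a block, GCLC was called lower (adjusted p = 0.0434). The modifier subunit GCLM was at 8.68, 8.93 and 7.27 FPKM in iEV and at 8.52, 8.81 and 8.54 FPKM in iGLI2, a change of 0.05 with a 95% confidence interval of -0.15 to 0.26 (adjusted p = 0.681). The groups overlapped for each subunit, and for GCLM the iGLI2 libraries lay within the range of the iEV libraries.

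The other 6 genes of this role were not called. TXN, the thioredoxin itself, had a mean of 457 ± 28.9 FPKM (SD, n = 3) in iEV and 418 ± 54.0 FPKM in iGLI2. The peroxiredoxin PRDX1, whose exons overlap MMACHC on the opposite strand, had 348 ± 21.5 and 329 ± 5.70 FPKM. GPX4, the peroxidase of membrane lipid peroxides, had 326 ± 29.1 and 264 ± 56.2 FPKM, and the cytosolic GPX1 had 218 ± 11.9 and 184 ± 22.7 FPKM. All 3 iGLI2 values of GPX1 lay below the iEV values, as did those of SRXN1, the sulfiredoxin that repairs oxidized peroxiredoxins (27.1 ± 2.13 and 22.3 ± 2.61 FPKM), with adjusted p-values of 0.147 and 0.127. GSR, the glutathione reductase, had 44.1 ± 1.82 and 42.1 ± 4.01 FPKM.

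HMOX1 and OSGIN1 were low and were not called. HMOX1, the inducible heme oxygenase, was at 2.26, 2.14 and 1.96 FPKM in iEV and at 1.75, 2.79 and 3.40 FPKM in iGLI2. Its iGLI2 libraries held both the lowest and the highest of the 6 values. The change was 0.20 ± 0.18 (adjusted p = 0.473), and 0.39 without iGLI2 replicate 1 (adjusted p = 0.0387). OSGIN1, an oxidative stress-induced growth inhibitor whose exons overlap those of MLYCD on the same strand, averaged 4.90 ± 0.325 FPKM in iEV against 3.84 ± 1.48 FPKM in iGLI2, where replicate 1 stood at 2.13 FPKM and the other two at 4.79 and 4.58 FPKM.

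None of the 4 enzymes of NADPH and the pentose phosphate pathway was called in the main fit of all 6 libraries. TALDO1, the transaldolase of the nonoxidative branch, was at 223, 268 and 243 FPKM in iEV and at 102, 167 and 182 FPKM in iGLI2. All iGLI2 values were below all iEV values, with iGLI2 replicate 1 far below its group. TALDO1 had a change of -0.74 ± 0.22 (adjusted p = 0.0655), and without iGLI2 replicate 1 a smaller one of -0.48 that passed the test (adjusted p = 0.0188). After rescaling without small RNA genes, TALDO1 was called at -0.66 (adjusted p = 0.0363), and it was called with the replicate number as a block (adjusted p = 0.0323).

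TKT, the transketolase of the same branch, averaged 262 ± 12.6 FPKM in iEV against 304 ± 77.2 FPKM in iGLI2. In iGLI2 it stood at 216 FPKM in replicate 1 and at 334 and 362 FPKM in replicates 2 and 3, on either side of the iEV values. The change of TKT was 0.18 (adjusted p = 0.558) and 0.41 without iGLI2 replicate 1 (adjusted p = 0.0114). PGD, the phosphogluconate dehydrogenase of the oxidative branch, had 97.3 ± 3.28 and 101 ± 8.65 FPKM, and malic enzyme ME1 had 20.7 ± 0.733 and 22.3 ± 2.27 FPKM. ME1 passed the test without iGLI2 replicate 1 alone, at 0.18 (adjusted p = 0.0493).

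Of the 6 quinone and carbonyl reductases, 0 were called higher and 2 lower (0% and 33.3%, beside 10.1% and 11.8% of all genes tested). AKR1C3 had the largest positive estimate of all tested members but was not called. NQO1, the quinone reductase that serves as a standard readout of NRF2 (chr16:69740899-69760571 of hg19, minus strand), was at 187, 199 and 195 FPKM in iEV and at 131, 138 and 140 FPKM in iGLI2. The values within each group were close together and the groups lay far apart. NQO1 fell by 0.50 on the log2 scale (SE 0.06, adjusted p = 0.00333), a ratio of 0.705, and stayed called with any library left out (adjusted p 0.00319 to 0.0252).

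AKR1B1, the aldose reductase, and AKR1B10, a reductase of retinals and other carbonyls, both lie on chromosome 7 (chr7:134127108-134144036, minus strand, and chr7:134212319-134226164, plus strand, of hg19). The longest coding transcript of each shares no 50-base stretch with coding transcripts of the other. AKR1B1 was at 144, 197 and 187 FPKM in iEV and at 71.0, 113 and 109 FPKM in iGLI2. Replicate 1 was the lowest of each group, and the groups did not overlap. AKR1B1 fell by 0.86 on the log2 scale (SE 0.21, adjusted p = 0.0374), a ratio of mean FPKM of 0.556. The call was lost without iEV replicate 2 (adjusted p = 0.127), iEV replicate 3 (0.124), iGLI2 replicate 2 (0.0610) or iGLI2 replicate 3 (0.0684), and narrowly when genes of low value were kept (0.0514).

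AKR1B10 was at 27.9, 32.2 and 33.8 FPKM in iEV and at 33.9, 58.5 and 62.8 FPKM in iGLI2. iGLI2 replicate 1 stood barely above the highest iEV library, while iGLI2 replicates 2 and 3 were well above it. The change of 0.66 ± 0.24 was not called (adjusted p = 0.105). Without iGLI2 replicate 1, it was 0.93 and called (adjusted p = 0.00301), and after rescaling 0.74 (adjusted p = 0.0332). AKR1B10 was also called with the replicate number as a block (adjusted p = 0.0374).

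AKR1C1, AKR1C2 and AKR1C3, hydroxysteroid dehydrogenases that also reduce aldehydes and ketones, lie together on chromosome 10 (chr10:5005445-5149878 of hg19 from the first to the last). Their transcripts share sequence, counted as 50-base stretches of the longest coding transcript of a gene that occur in any coding transcript of the other. Of 3166 stretches of AKR1C2, 45.7% occur in AKR1C1, and of 6494 stretches of AKR1C1, 22.3% occur in AKR1C2. AKR1C3 shares 9.96% with AKR1C1 and 12.5% with AKR1C2. The authors' counting could therefore split reads among them, and the values of AKR1C1 and AKR1C2 are the less certain ones. AKR1C3 was at 45.9, 70.7 and 66.5 FPKM in iEV and at 68.5, 126 and 132 FPKM in iGLI2. AKR1C1 was at 4.29, 7.53 and 5.80 FPKM in iEV and at 5.69, 10.5 and 12.0 FPKM in iGLI2. AKR1C2 was at 11.8, 18.4 and 15.3 FPKM in iEV and at 8.61, 18.2 and 25.2 FPKM in iGLI2. In each of the 3 genes, replicate 1 was the lowest library of both groups and the groups overlapped.

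None of the 3 was called, with changes of 0.79 ± 0.30 for AKR1C3 (adjusted p = 0.115), 0.57 ± 0.29 for AKR1C1 (adjusted p = 0.228) and 0.09 ± 0.38 for AKR1C2 (adjusted p = 0.894). Summed in each library, they stood at 61.9, 96.7 and 87.6 FPKM in iEV and at 82.8, 155 and 169 FPKM in iGLI2, and the sum was not called either (0.68 ± 0.31, adjusted p = 0.180). Without iGLI2 replicate 1, AKR1C3 was called at 1.09 (adjusted p = 0.0155) and AKR1C1 at 0.86 (adjusted p = 0.0367), while AKR1C2, at 0.49, was not (adjusted p = 0.158). AKR1C3 was also called after rescaling, at 0.87 (adjusted p = 0.0417). With the replicate number as a block, AKR1C3 (adjusted p = 0.0103) and AKR1C1 (0.0455) were called, and AKR1C2 was not (0.789).

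**Figure D2:**
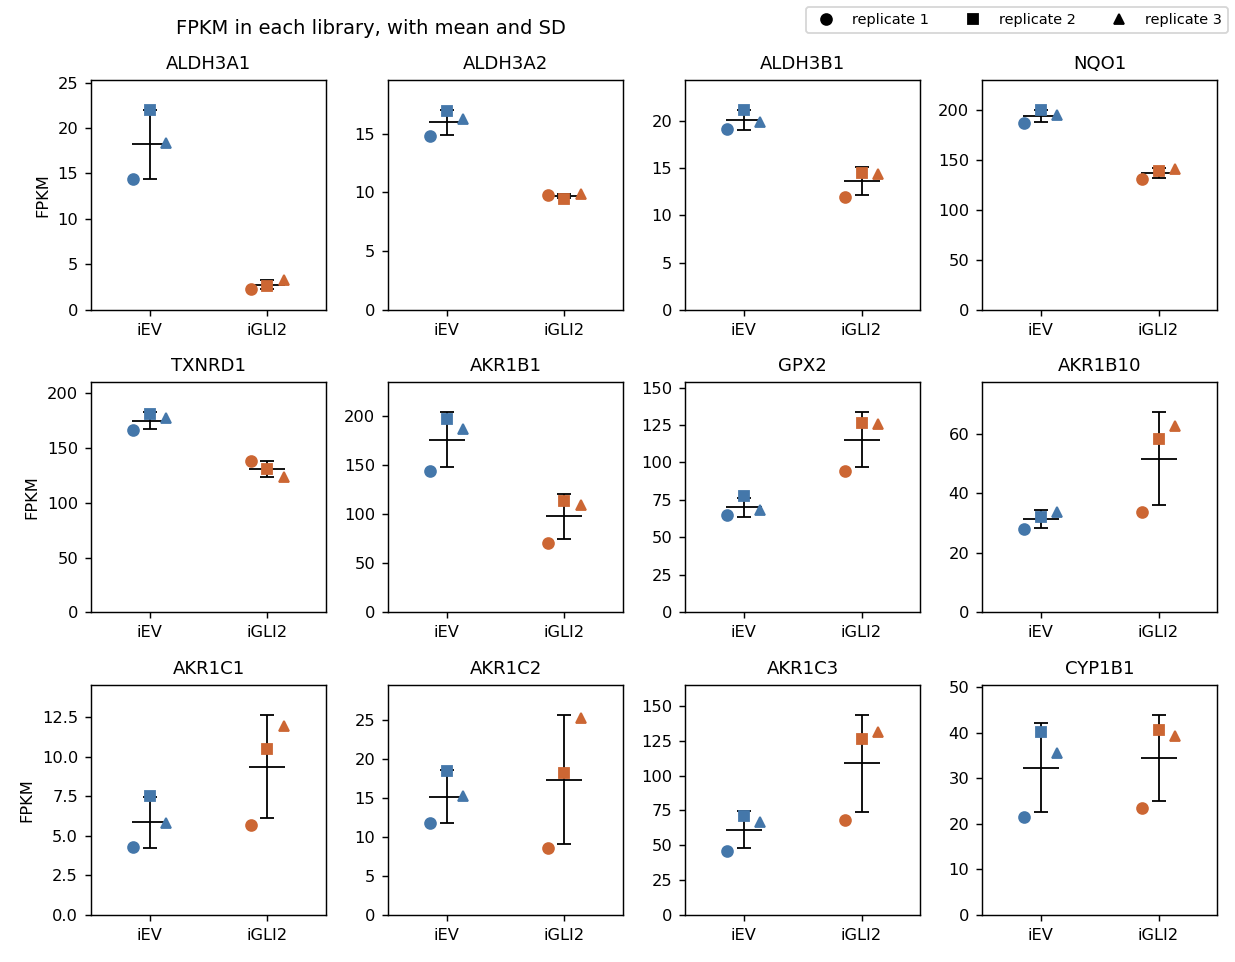
FPKM of 12 members in each library, on a linear axis from 0, with iEV in blue and iGLI2 in orange; symbols give the replicate number, and the horizontal line and bars the mean and SD of 3 libraries. The groups are apart in the 7 called members, from ALDH3A1 to GPX2, while in AKR1B10, the 3 AKR1C genes and CYP1B1 iGLI2 replicate 1 (circle) sits near or within the iEV range.

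The aldehyde dehydrogenases held the largest change of all members. ALDH3A1, which oxidizes aromatic and medium-chain aldehydes and is known as a gene of both the NRF2 and the AHR program (chr17:19641297-19652256 of hg19, minus strand), was at 14.4, 22.0 and 18.3 FPKM in iEV and at 2.34, 2.68 and 3.32 FPKM in iGLI2. The highest iGLI2 library was far below the lowest iEV library. ALDH3A1 fell by 2.33 on the log2(FPKM + 1) scale (SE 0.17, adjusted p = 0.000706), and its mean in iGLI2 was 0.153 times that in iEV. With any library left out, the adjusted p was between 0.00166 and 0.00683.

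ALDH3A2, the fatty aldehyde dehydrogenase, lies close to ALDH3A1 on chromosome 17 (chr17:19551449-19589073, plus strand). The longest coding transcript of each shares no 50-base stretch with coding transcripts of the other. ALDH3A2 was at 14.8, 16.9 and 16.2 FPKM in iEV and at 9.75, 9.48 and 9.87 FPKM in iGLI2. The iGLI2 values were almost the same and all below those of iEV. ALDH3A2 fell by 0.66 on the log2 scale (SE 0.07, adjusted p = 0.00175), with an adjusted p of 0.0033 to 0.0141 over the fits that leave out a library.

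ALDH3B1, a membrane-bound enzyme for long-chain aldehydes on chromosome 11 (chr11:67776048-67796749 of hg19, plus strand), was at 19.2, 21.2 and 19.9 FPKM in iEV and at 11.9, 14.5 and 14.4 FPKM in iGLI2. The groups did not overlap. ALDH3B1 fell by 0.53 on the log2 scale (SE 0.09, adjusted p = 0.0115). The call was lost when iEV replicate 2 (adjusted p = 0.0558) or iEV replicate 3 (adjusted p = 0.0510) was left out.

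Of the 4 aldehyde dehydrogenases tested, 0 were called higher and the 3 ALDH3 members lower (0% and 75%, beside 10.1% and 11.8% of all genes tested). A pair of relatives outside the members is given beside these, chosen after their values were seen. ALDH1B1, a mitochondrial enzyme, was at 7.97 to 8.16 FPKM in iEV and at 5.09 to 5.70 FPKM in iGLI2 and was also called lower (log2 fold change -0.48, adjusted p = 0.00436). ALDH3B2, a relative of ALDH3B1, was at 1.96 ± 0.103 FPKM in iEV and 2.93 ± 0.609 FPKM in iGLI2 and was not called (0.39, adjusted p = 0.0821), but was called higher without iGLI2 replicate 1 (0.53, adjusted p = 0.00770). ALDH1A3, a retinaldehyde dehydrogenase, was at 5.41 to 6.73 FPKM in iEV and at 7.08 to 9.17 FPKM in iGLI2, groups that did not overlap. The change of ALDH1A3 was 0.38 ± 0.12 (adjusted p = 0.0729) and passed the test without iGLI2 replicate 1 (0.48, adjusted p = 0.0209), after rescaling (0.44, adjusted p = 0.0163) and with upper quartile scaling (0.39, adjusted p = 0.0484). ALDH1A3 also passed with the replicate number as a block (adjusted p = 0.0129). ALDH1A1, its relative that is used as a stem cell marker, averaged 0.485 ± 0.143 FPKM in iEV against 0.440 ± 0.0569 FPKM in iGLI2, below the level tested.

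None of the 5 glutathione transferases was called. GSTP1, which conjugates electrophiles to glutathione, was the most abundant member, at 1045 to 1144 FPKM in iEV and 802 to 1172 FPKM in iGLI2, and stood at place 76 among the 12493 genes by mean level. Its change was -0.12 with a 95% confidence interval of -0.49 to 0.25 (adjusted p = 0.618), and the sign turned without iGLI2 replicate 1 (0.05, adjusted p = 0.614). The microsomal MGST1 averaged 130 ± 13.8 FPKM in iEV against 112 ± 16.6 FPKM in iGLI2, MGST2 had 76.6 ± 4.43 and 69.8 ± 3.34 FPKM, and MGST3 had 57.9 ± 8.66 and 60.9 ± 6.17 FPKM. In these 3 microsomal enzymes, unlike most members, replicate 1 was above the mean of replicates 2 and 3 in both groups, by ratios of 1.07 to 1.28. MGST2 exons overlap MAML3 on the opposite strand. GSTM3 was low, at 2.76 to 4.94 FPKM over the 6 libraries, with equal group means of 3.96 FPKM.

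The cytochromes and EPHX1 were not called. CYP1A1, the classical AHR target, was at 1.12, 2.46 and 1.79 FPKM in iEV and at 0.514, 0.879 and 1.06 FPKM in iGLI2. Every iGLI2 library was below every iEV library, with a narrow gap between iGLI2 replicate 3 and iEV replicate 1. CYP1A1 reached the average of 1 FPKM needed for the test only through the iEV libraries, which limits its count among the members lower without overlap. CYP1A1 had a change of -0.60 ± 0.21 (adjusted p = 0.0995), which, among the fits that leave out a library, passed the test only without iEV replicate 1 (adjusted p = 0.0480). It also passed with the replicate number as a block (adjusted p = 0.0344). At so low a level the added 1 FPKM shrinks the change, and the log2 ratio of mean FPKM was -1.13. CYP1B1, which oxidizes polycyclic hydrocarbons and estradiol, was at 21.4, 40.2 and 35.5 FPKM in iEV and at 23.6, 40.7 and 39.2 FPKM in iGLI2. Its replicate 1 was low in both groups, and the change of 0.10 ± 0.30 was within that spread (adjusted p = 0.847). Exons of CYP1B1 overlap CYP1B1-AS1 on the opposite strand. The epoxide hydrolase EPHX1 averaged 22.7 ± 0.541 FPKM in iEV against 22.7 ± 3.17 FPKM in iGLI2.

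**Figure D3:**
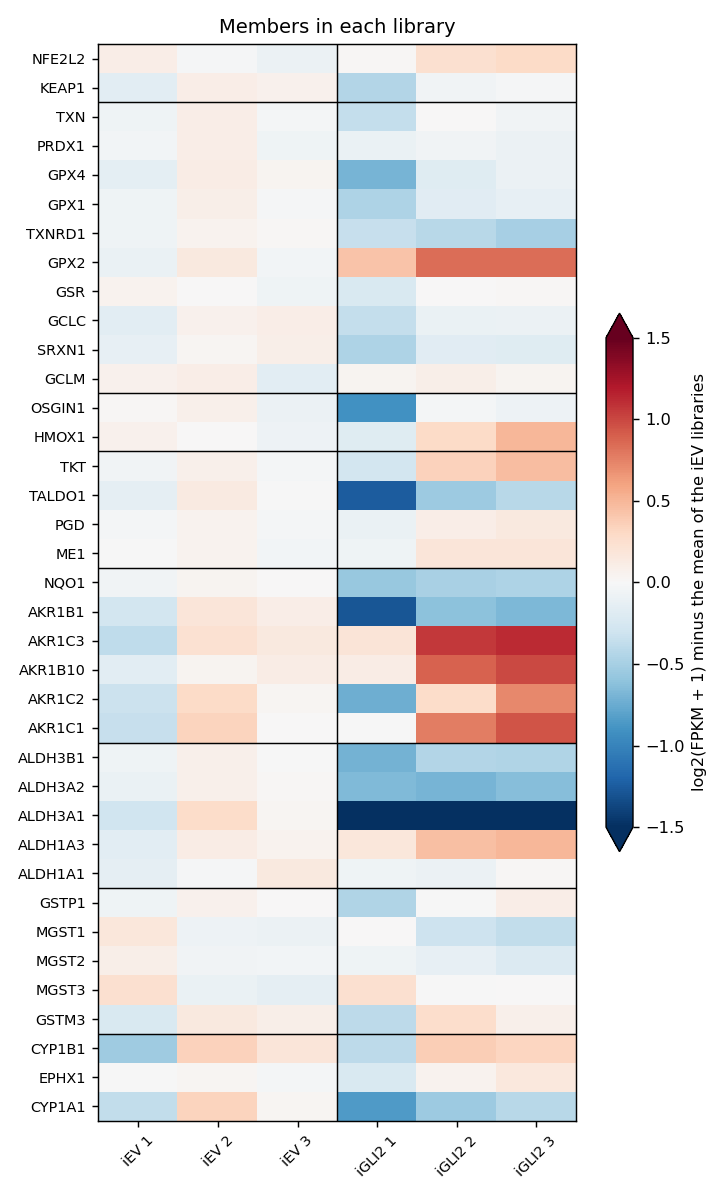
The 37 members in each library as log2(FPKM + 1) minus the mean of the 3 iEV libraries, with black lines between roles; the color scale ends at 1.5 in either direction, which ALDH3A1 exceeds in all 3 iGLI2 libraries. iGLI2 replicate 1 is bluer than iGLI2 replicates 2 and 3 in most rows, and AKR1C1, AKR1C3 and AKR1B10 are much redder in replicates 2 and 3 than in replicate 1, which is close to the iEV mean in these genes.

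Other genes of these pathways, none of them members, were taken from 6 lists of 165 genes in all, of which 164 were found and 127 were tested. Of the 127, 16 were called higher and 18 lower, that is 12.6% and 14.2%, close to the shares over all genes given above. Their median log2 fold change was -0.01. The lists are described by their counts and shares only, and no test was made of these shares.

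Among 15 regulators of NRF2, 1 rose and 2 fell (6.67% and 13.3%, beside 10.1% and 11.8% of all genes tested). MAFK, a small MAF partner of NRF2, rose from 19.9 ± 0.707 to 24.0 ± 1.37 FPKM (log2 fold change 0.26, adjusted p = 0.0373). NFE2L3, a close relative of NRF2, fell by 1.38 on the log2 scale, from 122 ± 16.6 to 46.3 ± 6.29 FPKM (adjusted p = 0.00207). SQSTM1, the p62 protein that draws KEAP1 into autophagy and is itself an NRF2 target, fell from 705 ± 65.2 to 477 ± 80.3 FPKM (log2 fold change -0.57, adjusted p = 0.0405). The calls of MAFK and SQSTM1 did not hold in every fit that leaves out a library, with adjusted p up to 0.135 and 0.137. DPP3, a KEAP1 binding protein, was listed at 0 in iEV replicate 3 and at 60.3 to 71.7 FPKM in the other 5 libraries, so its fitted change is not read.

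Of 23 further NRF2 targets, 6 rose and 2 fell (26.1% and 8.70%, beside 10.1% and 11.8% of all genes tested). CBR3, a carbonyl reductase, rose from 4.84 ± 0.317 to 10.3 ± 0.729 FPKM (log2 fold change 0.95, adjusted p = 0.000905), and SLC7A11, the cystine transporter that feeds glutathione synthesis, from 21.0 ± 0.683 to 32.4 ± 3.09 FPKM (0.60, adjusted p = 0.00523). BLVRA, a biliverdin reductase that acts after heme oxygenase, fell from 116 ± 2.16 to 74.3 ± 5.14 FPKM (-0.64, adjusted p = 0.00244). TRIM16 fell from 9.19 ± 1.66 to 5.19 ± 1.21 FPKM (-0.73, adjusted p = 0.0409, up to 0.133 with a library left out).

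Glutathione and peroxide handling showed 4 of 30 genes higher and 3 lower (13.3% and 10%, beside 10.1% and 11.8% of all genes tested). SESN3, a sestrin, rose from 1.01 ± 0.498 to 5.13 ± 1.42 FPKM (log2 fold change 1.61, adjusted p = 0.00601), and the joint entry of TXNRD3 and TXNRD3NB from 6.96 ± 0.368 to 9.86 ± 0.984 FPKM (0.45, adjusted p = 0.0155, up to 0.0717 with a library left out). Catalase, CAT, which splits hydrogen peroxide, fell from 47.0 ± 1.21 to 26.3 ± 0.482 FPKM (-0.82, adjusted p = 0.000507). GGT1, which opens extracellular glutathione, fell from 6.41 ± 0.612 to 2.46 ± 0.376 FPKM (-1.10, adjusted p = 0.00177).

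In the AHR list, 1 of 8 genes rose and 0 fell (12.5% and 0%, beside 10.1% and 11.8% of all genes tested). That gene was TIPARP, an AHR target that represses AHR, which rose from 12.5 ± 0.454 to 24.0 ± 1.88 FPKM (log2 fold change 0.88, adjusted p = 0.000991). AHR itself was at 42.9 to 50.7 FPKM in iEV and 47.7 to 51.9 FPKM in iGLI2 and was not called (0.11, adjusted p = 0.390). The repressor AHRR was read from a joint entry with PDCD6 (158 to 194 FPKM), so its own level is not known. TIPARP was thus called in the opposite direction to ALDH3A1, and CYP1A1 was called in neither.

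Of 36 other phase I enzymes, which oxidize, reduce or hydrolyze, 3 rose and 7 fell (8.33% and 19.4%, beside 10.1% and 11.8% of all genes tested). The retinol dehydrogenase DHRS9 rose from 2.60 ± 0.318 to 4.85 ± 0.334 FPKM (log2 fold change 0.70, adjusted p = 0.00441) and CYP4V2 from 3.66 ± 0.427 to 5.10 ± 0.0961 FPKM (0.39, adjusted p = 0.0227, up to 0.0879 with a library left out). The alcohol dehydrogenase ADH1C fell from 15.0 ± 0.947 to 7.55 ± 0.289 FPKM (-0.90, adjusted p = 0.000739). CYP3A5, a drug-oxidizing cytochrome, fell from 4.91 ± 0.956 to 1.69 ± 0.129 FPKM (-1.12, adjusted p = 0.00285).

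Of 16 other phase II enzymes, which conjugate, 1 rose and 4 fell (6.25% and 25%, beside 10.1% and 11.8% of all genes tested). GSTA4, the transferase for hydroxynonenal, rose from 0.408 ± 0.159 to 1.77 ± 0.161 FPKM (log2 fold change 0.98, adjusted p = 0.00366). It reached the average of 1 FPKM needed for the test only through the iGLI2 libraries, and without iGLI2 replicate 1 it was not tested. NNMT, which methylates nicotinamide, fell by 2.37 on the log2 scale, from 10.5 ± 3.86 to 1.17 ± 0.493 FPKM (adjusted p = 0.00466). The kappa transferase GSTK1 fell from 153 ± 10.3 to 85.2 ± 13.1 FPKM (-0.85, adjusted p = 0.00744).

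**Figure D4:**
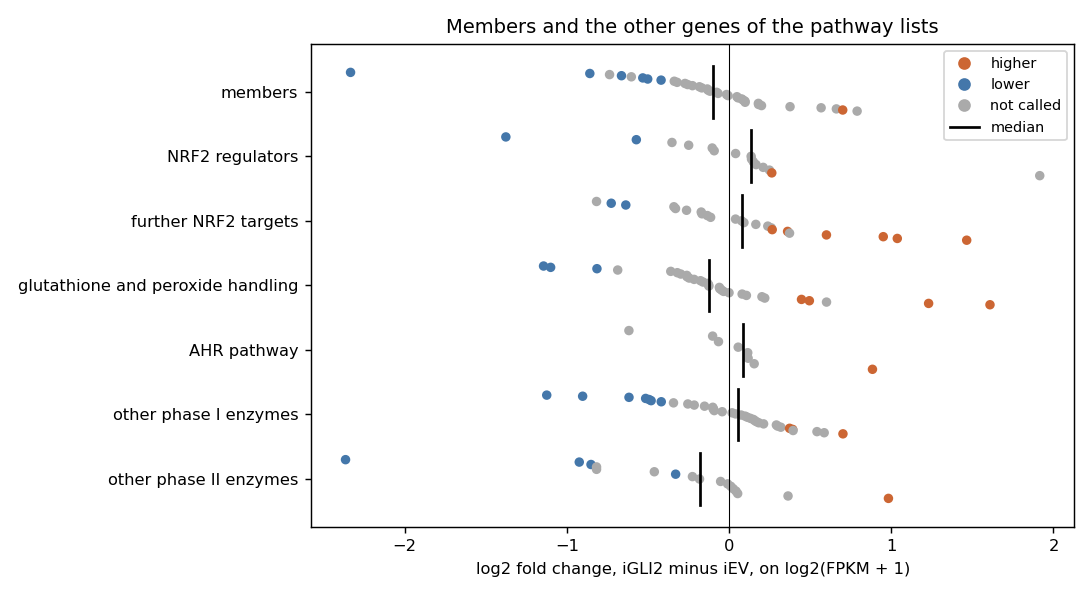
Log2 fold change, iGLI2 minus iEV on log2(FPKM + 1), of the 36 tested members and of the tested genes of the 6 lists; orange points were called higher, blue points lower and grey points not called, and the vertical bar is the median of each row. Called genes lie on both sides of 0 in every row but that of the AHR pathway, and the grey point near 2 among the regulators is DPP3, listed at 0 in 1 iEV library.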

How the data were processed

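Total RNA of 6 libraries (TruSeq RNA kit) was sequenced by the authors, who used Trimmomatic for trimming, TopHat2 for alignment to hg19 and Cuffdiff 2.1.1, the version per the submitters' processing notes. The deposited values name no unit and were read as FPKM from their form. Depth per library cannot be recovered from FPKM, so no counting interval or detection limit is given. The scaling between libraries, the gene annotation and the handling of reads with several matches are not given in the sources used here. The total was 981341 to 1082680 FPKM in the iEV libraries and 803145, 889555 and 878233 FPKM in iGLI2 replicates 1, 2 and 3. MIR4461, a short RNA gene, held 42.6% to 45.4% of it in iEV and 35.7% to 37.7% in iGLI2. Without small RNA genes, the total was 490327 FPKM in iGLI2 replicate 1 and 529827 to 558607 FPKM in the other libraries. All value columns belonged to a sample.

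Of 27024 entries, 1252 off the primary chromosomes and 330 repeated names of lower mean were dropped. The 12493 genes averaging 1 FPKM or more entered limma 3.58.1 (R 4.3.3) as log2(FPKM + 1), with group as the sole factor, a variance prior that follows intensity and two-sided Benjamini-Hochberg adjusted p-values with a threshold of 0.05. With 3 libraries against 3, an exact permutation test of a single gene cannot go below p = 0.1 and was not used. Alternatives were a pseudocount of 0.1, no filter, a mean of at least 5 FPKM, upper quartile, quantile and small-RNA-free scaling, no trend, a replicate block and each library left out. On simulated data of 12493 genes, 174 of 200 changed genes (87%) were recovered, with 11 others called. Whether this share holds for the members, with their own sizes of change and spread between libraries, was not tested. The members and lists were chosen with earlier results of these data known. Values in every library are printed for members called with a log2 fold change of at least 0.5 in size and, whatever their test, for NFE2L2, KEAP1, NQO1, GCLC, GCLM, HMOX1, TXNRD1, AKR1C1, AKR1C2, AKR1C3, GPX2, CYP1A1 and CYP1B1. Those of AKR1B10, TALDO1, TKT and OSGIN1 were added after their values were seen. From each list, the 2 called genes of smallest p in each direction are named. DPP3, AHR, ALDH1B1 and ALDH3B2 were named after their values were seen. Gene places are from GENCODE 44 lifted to hg19 and promoters from RefSeq.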

Additional observations from a re-analysis of the deposited data

How the results depend on the processing

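ALDH3A1, ALDH3A2 and NQO1 were called under every alternative run, and no member that was called turned its sign. The number of members called higher, 1 as reported, was 2 with upper quartile scaling, 4 after leaving out small RNA genes and rescaling, and 0 to 9 with 1 library left out. The number lower, 6 as reported, was 3 to 7 with 1 library left out. Over all genes, 2742 of 12493 were called in the main fit (46.0% of them higher). With upper quartile scaling 2792 of 12493 were called (49.0% higher), and after rescaling 3012 of 12154 (59.4% higher). Without iEV replicate 2, where 3 members were lower, 1222 of 12491 genes were called (50.5% higher). Without iGLI2 replicate 1, where 9 members were higher and 7 lower, 3744 of 12495 were called (49.0% higher). The pathway list genes called higher, 16 as reported, numbered 10 at a mean of at least 5 FPKM, 25 after rescaling and 7 to 23 with 1 library left out, and the calls over all genes, 2742 as reported, numbered 1222 to 3744. The causes were not tested.

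Reversals were seen only in members not called. After rescaling, GSR was at 0.0085, GSTM3 at 0.045, EPHX1 at 0.069 and PRDX1 at 0.0014. With quantile normalization, GSTP1 was at 0.040, EPHX1 at 0.012 and PRDX1 at 0.031, and with upper quartile scaling EPHX1 was at 0.013. Over the fits that leave out a library, GCLM ranged from -0.027 to 0.10, AKR1C2 from -0.23 to 0.49, GSR from -0.11 to 0.011, GSTP1 from -0.23 to 0.048, GSTM3 from -0.16 to 0.17, MGST3 from -0.0035 to 0.20, CYP1B1 from -0.17 to 0.34 and EPHX1 from -0.088 to 0.10.

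Whether the same replicate number pairs libraries of both groups is not known from the labels. The titles also hold codes, YRE1A, YRE1B and YRE2A for iEV replicates 1 to 3 and YRG1A, YRG1B and YRG2B for iGLI2. Number 3 thus joins codes ending in 2A and 2B, and what the codes mean is not stated. Deviations from the group means correlated at 0.204, 0.0919 and 0.0276 for numbers 1, 2 and 3. Unlike numbers ranged from -0.19 (iEV replicate 2 with iGLI2 replicate 1) to 0.117 (iEV replicate 2 with iGLI2 replicate 3). Number 1 thus gave the highest value of all combinations. With the replicate number as a block, 5 of the 36 members tested were called higher and 11 lower. Over all genes, 3928 of 12493 were called in that fit, of which 46.05% were higher. The 5 were GPX2, AKR1B10, AKR1C1, AKR1C3 and ALDH1A3. The 11 were the 6 called lower in the main fit with GCLC, SRXN1, MGST1, TALDO1 and CYP1A1. CYP1A1 reached the level needed for the test only through the iEV libraries, which limits its place in this count. FPKM do not give depth, so the counting error of low members cannot be stated.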
